A study of Macrobrachium nipponense with 6 samples.

Results

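The microRNA miR-8 was represented by 6 of the 2546 miRNA probes on arrays hybridised with RNA of the oriental river prawn, Macrobrachium nipponense. The 6 were all probes whose name after the species prefix is miR-8, with or without an arm or variant suffix. Of these, 4 carry the 3p arm of the miR-8 hairpin (dpu-miR-8_R-1, dme-miR-8-3p, lmi-miR-8-3p and api-miR-8), and 2 carry the 5p arm (dme-miR-8-5p and aae-miR-8-5p_1ss12GA). The prefixes are the species codes of the miRNA database: dpu is the water flea Daphnia pulex, dme the fruit fly Drosophila melanogaster, lmi the locust Locusta migratoria, api the pea aphid Acyrthosiphon pisum and aae the mosquito Aedes aegypti. The probes api-miR-8 and dpu-miR-8_R-1 name no arm and were counted with the 3p arm, as was every miR-8 probe not named 5p. Their sequences go with this, at no more than 2 edits from each other and from the other 3p targets.

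Prawns were kept for 24 h in hypoxic water, at 2.0 ± 0.1 mg O2 per L and lowered by bubbling nitrogen, or in normoxic water, at 6.5 ± 0.2 mg O2 per L. Each oxygen level had 3 samples on 1 array each, and each sample was total RNA over gill, hepatopancreas, muscle and hemocytes. The labels give neither the age of the prawns nor how many animals a sample holds, nor whether samples share animals. The spread that p-values rest on here is the one between these 3 samples per oxygen level, which may be technical. Because the tissues were combined, fewer cells of a type and less RNA per cell cannot be told apart, and a change in 1 tissue can be diluted by the others.

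A miRNA hairpin is cut into a 5p and a 3p strand, of which usually the more stably loaded one guides an Argonaute protein to its targets, mainly through the seed at bases 2 to 8. For miR-8 this is the 3p strand, and its seed is shared with part of the vertebrate miR-200 family. In the Drosophila fat body, the organ that stores fat and sets body growth by nutrition, miR-8 lowers the protein U-shaped, an inhibitor of insulin signalling, and so promotes growth. The hepatopancreas of decapods takes over many tasks of the insect fat body and of the vertebrate liver.

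The targets that differ by a base show how alike the probes are, with the seed and the base that differs from the compared probe in capitals, written 5′ to 3′ from the array files.
lmi-miR-8-3p: uAAUACUGucagguaaCgauguc
api-miR-8: uAAUACUGucagguaaUgauguc
aae-miR-8-5p_1ss12GA: cAUCUUACcggAcagcauuaga
Counted from the 5′ end, lmi-miR-8-3p has the substitution A17C and api-miR-8 the substitution A17U relative to dpu-miR-8_R-1, and both are 1 base longer at the 3′ end. The probe dme-miR-8-3p has no substitution relative to dpu-miR-8_R-1 and is also 1 base longer at the 3′ end, at 23 against 22 bases. In the 5p arm, aae-miR-8-5p_1ss12GA differs from dme-miR-8-5p by G12A, which is the change its own name gives. The 4 probes of the 3p arm were the only ones of the array with the seed AAUACUG, and the 2 of the 5p arm the only ones with AUCUUAC. No other probe lay within 3 edits of a miR-8 target, and the nearest was 7 edits away. No probe was named miR-200, miR-141 or miR-429, the vertebrate relatives. The targets of the remaining 3 probes are not printed here, and the prawn's own miR-8 locus was not analysed here.

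Across the arrays, 342 to 1001 of the 2546 probes were above the detection limit, which lay 3 standard deviations of empty spots over a spot's local background. A probe entered the comparison when every array of hypoxia, or every array of normoxia, detected it, which 339 probes met. Probes for the muscle miRNAs miR-1 (3 to 5 of 9) and miR-133 (2 to 4 of 6) were detected on every array. Those for the nervous system miRNA miR-124 were detected on hypoxia 2 only (3 of 8 probes). Hypoxia 2 had the lowest detection limit of all arrays, 27.8, and 908 probes detected, against 443 and 420 on hypoxia 1 and 3. Normoxia 2, with 1001 probes detected, had no miR-124 probe among them. No probe for miR-122, a vertebrate liver miRNA, was on the array, so the hepatopancreas has no marker here. The array hypoxia 3 stood apart from the other hypoxia arrays: over these 339 probes (probes are no independent replicates) its log2 levels correlated with hypoxia 1 at r = 0.732 and with hypoxia 2 at 0.776, while hypoxia 1 and 2 correlated at 0.893. It did not stand apart from the normoxia arrays, with r of 0.821, 0.816 and 0.843 to normoxia 1, 2 and 3, which correlated with each other at 0.826 to 0.887. Results below are therefore also given without hypoxia 3 where that matters. The arrays also carry calibration probes in sets named 3M and 3P, terms that the files leave unexplained. The ratio of their median signals, 3M over 3P, was 10.1%, 7.34% and 0.821% on hypoxia 1, 2 and 3, against 1.67%, 2.89% and 1.46% on normoxia 1, 2 and 3. For other calibration probes, PUC2MM over PUC2PM, the ratio was 54.8%, 32.9% and 13.3% on hypoxia 1, 2 and 3. On normoxia 1, 2 and 3 it was 16.1%, 23.9% and 21.4%. In both ratios hypoxia 1 and 2 were above every normoxia array and hypoxia 3 below. The calibration ratio below is 3M over 3P. The number of arrays limits the precision of every value.

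The design asks whether 24 h of low oxygen went with another level of miR-8. No miR-8 probe passed: 0 of the 5 tested probes had an adjusted p under 0.05 (limma with Benjamini-Hochberg adjustment over 339 probes, adjusted p = 0.870 to 1.00), where 0% of all tested probes did. Changes, hypoxia minus normoxia, were above 0 in 2 of the 5 and below 0 in 3, with a median of -0.010 (log2), against a median of -0.094 over all 339 probes. At an unadjusted p under 0.05 there was 1 miR-8 probe, dme-miR-8-5p, where 4.42% of all tested probes reached this, and 2.65% did so with a lower level in hypoxia. The remaining probe, api-miR-8, was detected on 2 of 3 arrays of either oxygen level and was not tested. Over all alternatives of the processing, the adjusted p of the tested miR-8 probes ran between 0.177 and 1.00 (limma).

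The miR-8 probe with the highest signal was dpu-miR-8_R-1, for the guide strand without its last base; since each probe binds with its own strength, signals of different probes do not rank the forms by abundance. Above the local background it read 3632, 2631 and 5173 (linear intensity) on hypoxia 1, 2 and 3, against 3754, 4561 and 2574 on normoxia 1, 2 and 3, far above limits of 27.8 to 94.5. After normalization its level was 11.36, 12.18 and 12.01 (log2) in hypoxia, against 12.49, 11.59 and 11.39 in normoxia. The hypoxia values lie inside the normoxia range except for hypoxia 1, just below it, so the groups overlap. The change was 0.022 (log2, standard error 0.40, 95% interval -0.95 to 0.99), smaller than the spread between replicates (SD 0.43 in hypoxia and 0.59 in normoxia, n = 3 each). The interval leaves room for a change of almost 2-fold in either direction, so an equal level is not shown.

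The guide strand with its last base, dme-miR-8-3p, is the full-length form by the fly's name. It read 3705, 1823 and 819 above background on hypoxia 1, 2 and 3, against 1759, 2866 and 1455 on normoxia 1, 2 and 3. Normalized levels were 11.49, 11.62 and 10.15 (log2) in hypoxia, against 11.52, 11.00 and 10.77 in normoxia. Hypoxia 3 was the lowest of the 6 arrays, and the other hypoxia arrays lay near the highest normoxia array. The change was -0.010 (log2, 95% interval -1.15 to 1.13), and 0.46 without hypoxia 3 (limma, adjusted p = 0.457).

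The substituted guide-strand probes read close to the detection limit on some arrays. Above background, lmi-miR-8-3p read 726, 543 and 85.8 on hypoxia 1, 2 and 3, against 264, 238 and 46.2 on normoxia 1, 2 and 3, the last of which was below the limit of 94.5. Its levels of 8.79, 9.79 and 7.31 (log2) in hypoxia, against 9.04, 8.01 and 7.41 in normoxia, span more than 2 log2 units within hypoxia alone. The change was 0.48 (95% interval -1.30 to 2.26), and 1.14 without hypoxia 3 (limma, adjusted p = 0.394). The untested api-miR-8 read 404, 371 and 54.7 above background on hypoxia 1, 2 and 3, against 292, 80.2 and 33.2 on normoxia 1, 2 and 3. It was below the limit on hypoxia 3 and normoxia 3. Above background, both probes read highest on hypoxia 1 and 2, where the calibration ratio was also highest. After normalization, hypoxia 1 read lower than normoxia 1 for both, for api-miR-8 at 8.24 (log2) on hypoxia 1 against 9.15 on normoxia 1. With log2 of this ratio added to the fit as a covariate, a choice made after seeing the data, the change of lmi-miR-8-3p was -0.054 (limma, adjusted p = 0.989). The part of that ratio in the values was not tested.

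Of the 5p arm, usually the passenger strand, dme-miR-8-5p was the miR-8 probe with the clearest separation of the groups. Its levels were 8.54, 8.85 and 8.39 (log2) in hypoxia, against 9.19, 9.23 and 9.17 in normoxia. Every hypoxia array lay below every normoxia array, with a gap of 0.31 between the groups, and the normoxia values were close together (SD 0.03, against 0.24 in hypoxia, n = 3 each). The change was -0.60 (log2, standard error 0.23, 95% interval -1.16 to -0.04), a ratio of 0.659, and it did not pass the test over all probes (limma, adjusted p = 0.870, unadjusted p = 0.0397). Groups did not overlap for 34 of the 339 tested probes, or 10%, and 21 of these (6.19%) were lower in hypoxia. Finding 1 such probe among 5 is therefore no result about miR-8. The separation also depends on the scaling: before it, the probe read 615, 277 and 167 above background on hypoxia 1, 2 and 3, against 306, 784 and 445 on normoxia 1, 2 and 3, where the groups overlap. In the authors' deposited table its values were 315, 342 and 270 on hypoxia 1, 2 and 3, against 402, 476 and 454 on normoxia 1, 2 and 3, again with no overlap.

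The other 5p probe, aae-miR-8-5p_1ss12GA, with the substitution G12A, read 713, 361 and 663 above background on hypoxia 1, 2 and 3, against 476, 967 and 649 on normoxia 1, 2 and 3. Its levels were 8.74, 9.12 and 10.05 (log2) in hypoxia, against 9.55, 9.45 and 9.63 in normoxia. Hypoxia 1 and 2 lay below every normoxia array and hypoxia 3 above every one. Scaled to the 75th percentile instead, all hypoxia arrays of this probe lay below all normoxia arrays, while the groups of dme-miR-8-5p then overlapped. With quantile normalization the change was -0.24 (log2, 95% interval -1.16 to 0.68), and -0.62 without hypoxia 3 (limma, adjusted p = 0.204).

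To compare arms and variants, the log2 difference of 2 probes was taken within each array, which cancels the array's overall brightness, and set between oxygen levels. Over the 10 pairs of the 5 tested probes, none passed between oxygen levels (two-sided exact permutation test, p = 0.2 to 1 and adjusted p = 1 over the 10 pairs, n = 3 each). With 3 arrays against 3 this test cannot go below 0.1, so the exact 90% interval from inverting it is given for pairs of the same arm.

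For the guide strand without and with its last base, dpu-miR-8_R-1 minus dme-miR-8-3p was -0.13, 0.56 and 1.86 (log2) on hypoxia 1, 2 and 3, against 0.98, 0.60 and 0.62 on normoxia 1, 2 and 3. The hypoxia arrays lay on both sides of the normoxia range. The difference in change was 0.032 (90% interval -1.11 to 1.26). It was -0.52 without hypoxia 3.

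Relative to the A17C probe, dpu-miR-8_R-1 minus lmi-miR-8-3p was 2.57, 2.39 and 4.70 (log2) on hypoxia 1, 2 and 3, against 3.45, 3.59 and 3.99 on normoxia 1, 2 and 3. Hypoxia 1 and 2 were below every normoxia array and hypoxia 3 above every one. On normoxia 3, lmi-miR-8-3p read 46.2 above background, under the limit of 94.5. On hypoxia 3 it read 85.8, just over the limit of 77.0. Differences with this probe therefore include a value below the detection limit. The difference in change was -0.46 (90% interval -1.59 to 1.24). With single arrays left out it ran from -1.19 (without hypoxia 3) to -0.044 (without hypoxia 2). For the full-length form, dme-miR-8-3p minus lmi-miR-8-3p gave a difference in change of -0.49 (90% interval -1.53 to 0.36), which ran from -0.72 (without normoxia 1) to -0.18 (without hypoxia 2) with single arrays left out.

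In the 5p arm, dme-miR-8-5p minus aae-miR-8-5p_1ss12GA was -0.20, -0.26 and -1.66 (log2) on hypoxia 1, 2 and 3, against -0.35, -0.22 and -0.47 on normoxia 1, 2 and 3. Hypoxia 3 lay apart from the other 5 arrays, which were between -0.47 and -0.20. The difference in change was -0.36 (90% interval -1.44 to 0.27), and 0.12 without hypoxia 3.

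Between the arms, the pairs of a 3p and a 5p probe had differences in change (3p minus 5p) of 0.23 to 1.08 (log2). The pairs at 0.72 and 1.08 both rest on lmi-miR-8-3p, which was below the detection limit on normoxia 3. The pair of dpu-miR-8_R-1 and dme-miR-8-5p, the brightest probe and the one with separated groups, was at 0.62 (90% interval -0.48 to 1.39, exact permutation p = 0.2). All 6 such differences were above 0, but the pairs share probes and arrays, so this is not 6 independent observations. In some pairs with aae-miR-8-5p_1ss12GA the direction also rests on single arrays. There dme-miR-8-3p minus aae-miR-8-5p_1ss12GA, at 0.23, turned to -0.25 without hypoxia 1 and -0.13 without hypoxia 2. The difference of dpu-miR-8_R-1 minus aae-miR-8-5p_1ss12GA, at 0.27, shrank to 0.0081 without hypoxia 2 and 0.0044 without normoxia 3. The remaining pairs stayed above 0 with any single array left out. For lmi-miR-8-3p minus aae-miR-8-5p_1ss12GA the range was 0.052 to 1.75, and for the 3p probes minus dme-miR-8-5p it was 0.36 to 1.64.

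Near-identical miR-8 probes diverged most on hypoxia 3 in most pairs. Among the 4 pairs of tested miR-8 probes within 3 edits, hypoxia 3 was farthest from the median of the arrays in 3 and hypoxia 2 in 1. This was not limited to miR-8: over 855 pairs of tested probes within 3 edits, which share probes, hypoxia 3 was farthest in 42.5% and each other array in 8.89% to 15.7%. It also had the lowest calibration ratio, 0.821%, and the part of that ratio was not tested.

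The likeness of other miRNAs to dpu-miR-8_R-1 was measured as the root mean square difference between centred log2 levels over the 6 arrays, where 0 is an identical profile. The closest, 1 per miRNA, were ame-bantam (0.24), tur-miR-71-5p_R+3 (0.25), ame-miR-3751 (0.28), dwi-miR-276b-5p (0.29) and aae-miR-87 (0.29), against a median of 0.61 over the other 338 tested probes. The closest, bantam, is a growth regulator in flies, and ame-bantam had 13.04, 13.32 and 13.39 (log2) in hypoxia, against 13.63, 13.32 and 12.98 in normoxia. None of the 5 passed the test between oxygen levels (limma, adjusted p = 0.913 to 1.00). The other miR-8 probes were less like it than these: aae-miR-8-5p_1ss12GA stood at 0.49, dme-miR-8-5p at 0.52, dme-miR-8-3p at 0.60 and lmi-miR-8-3p at 0.79. A probe with the same level on every array would stand at 0.42, and 64 of the 338 probes were closer than that. None of the other 4 tested miR-8 probes was, the near-identical dme-miR-8-3p included.

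Insulin signalling, fat body and energy use were represented by 8 further miRNAs with 83 probes, of which 33 were tested. None passed (limma): 0 rose and 0 fell, where 0% of all tested probes passed. Changes lay above 0 in 20 and below 0 in 13, against 143 above and 196 below over all 339 probes. Of the 33, 15 were miR-276 probes and 9 miR-305 probes, and probes of the same miRNA are not independent observations. An unadjusted p under 0.05 was reached by 1 of the 33 (3.03%), against 4.42% of all tested probes. This was dsi-miR-305_R-3_1ss14AG, named after its value was seen, at 1.95 (log2; limma, adjusted p = 0.730). Their median change was 0.077 (log2), against -0.094 over all tested probes. The miRNAs miR-14 and miR-278, which act on insulin production and energy balance in flies, were scarcely measured: no miR-14 probe was detected on more than 1 array, and 1 of 12 miR-278 probes was tested. That probe, aae-miR-278-3p_1ss12TC, had 7.26, 8.01 and 9.16 (log2) in hypoxia, against 7.53, 7.72 and 7.68 in normoxia, with a change of 0.50 (95% interval -0.70 to 1.70). No miR-278 probe was detected on more than 5 arrays, so not all of these levels lie above the detection limit. For miR-33, a regulator of lipid metabolism in vertebrates and flies, and miR-277, linked to amino acid breakdown in flies, no probe was tested.

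Fat body and gut functions after feeding in mosquitoes involve miR-275, for which 5 of 10 probes were tested. Its brightest, aga-miR-275_1ss13AT, had 12.76, 12.41 and 11.70 (log2) in hypoxia, against 12.62, 12.92 and 13.17 in normoxia, with a change of -0.61 (95% interval -1.46 to 0.24). The groups overlap through hypoxia 1. The other 4 tested miR-275 probes had changes above 0, and the 5 together ran from -0.61 to 1.42 with a median of 1.25, so the probes of this miRNA disagree in direction. From the same cluster, cqu-miR-305-5p was at -0.07 (95% interval -0.72 to 0.57), while 6 of the 9 tested miR-305 probes lay above 0 (range -0.19 to 1.95, median 0.033). The brightest miR-276 probe, tur-miR-276-3p, was at 0.07 (95% interval -0.44 to 0.57), while 9 of the 15 tested miR-276 probes lay below 0 (range -1.32 to 2.64, median -0.044). Quantile normalization sets a level from the probe's rank on its array. The level of tur-miR-276-3p was 14.46 (log2) on hypoxia 1 and 2 and 14.50 on hypoxia 3 and normoxia 1. Whether the scaling held its change near 0 was not tested.

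For miR-9a, which acts on insulin-producing cells in flies, 3 of 6 probes were tested, all with changes above 0. Its brightest, tca-miR-9a-5p, had 12.07, 12.13 and 12.11 (log2) in hypoxia, against 11.81, 11.76 and 11.52 in normoxia. Every hypoxia array lay above every normoxia array there, as for 13 of the 339 tested probes (3.83%), and the change of 0.40 (95% interval -0.12 to 0.93) did not pass (limma, adjusted p = 0.870).

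With single arrays left out, the changes of dpu-miR-8_R-1, dme-miR-8-3p and lmi-miR-8-3p fell on both sides of 0, as did that of aae-miR-8-5p_1ss12GA, while that of dme-miR-8-5p stayed between -0.73 and -0.50 (log2). Since its groups do not overlap, leaving out an array could not turn that sign. Under the other processing alternatives its change was -0.68 to -0.34. The unadjusted p of dme-miR-8-5p (limma) was 0.113 with the replicate block, 0.197 with cyclic loess and 0.390 with no scaling. It stayed under 0.05 in some others, such as 0.0346 with array weights.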

How the data were processed

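Each sample's total RNA was Cy3-labelled for a 1-colour array, per the labels. The authors deposited scanner tables with a linear median intensity per spot, from which no background had been removed: empty spots read well above 0. They also deposited a table of processed intensity values, background-subtracted and scaled by a method not given in the sources used here. This table served as an alternative, as log2(value + 50). Its medians were 5.89, 0.0400 and 2.95 on hypoxia 1 to 3 and 4.37, 4.11 and 6.44 on normoxia 1 to 3. On the brighter tested probes its values were 0.679 to 1.51 times the scanner signal above background (median per array), with a log2 r of 0.998 to 1.00, so they were read as linear and uncentred. No column belonged to a sample outside the series.

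Each array had 3968 spots, 1130 of them empty, and 1 spot per miRNA probe. Local background was the median over the 20 empty spots closest to a spot and was corrected with normexp (offset 50, which shrinks changes of dim probes). After removal of control spots, intensities were quantile normalized between arrays and put on the log2 scale. Sample titles gave the groups. Probes detected on every hypoxia array or on every normoxia array went into limma 3.58.1 in R 4.3.3 (lmFit and eBayes), with Benjamini-Hochberg adjustment and a threshold of 0.05. The fit was checked on simulated arrays with known changes. Recovery of the changed probes was required only at a spread smaller than the measured one. The check therefore does not show how many changes the fit would find at the spread of these arrays.

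All miR-8 probes are reported. Other probes were named by rule: the 5 closest profiles, and the brightest tested probe of miR-14, miR-33, miR-275, miR-276, miR-277, miR-278, miR-305 and miR-9a. The members and lists were chosen with earlier results of these data known. Alternatives covered background, scaling, filter, detection limit, spread model, array weights, a replicate block and single arrays left out.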

Additional observations from a re-analysis of the deposited data

Results flagged for a closer look

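The ratio of the calibration probes 3M over 3P, which lie outside the miRNA comparison, exceeded that of every normoxia array (at most 2.89%) on 2 hypoxia arrays, with 10.1% on hypoxia 1 and 7.34% on hypoxia 2. Hypoxia 3, at 0.821%, was below every normoxia array. The ratio of PUC2MM over PUC2PM was likewise above every normoxia array on hypoxia 1 and 2 and below every one on hypoxia 3.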

How the results depend on the processing

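The count of probes changed by hypoxia was 0 of 339 (limma) and stayed 0 in 19 of 20 alternatives. With single arrays left out it was 0 to 1, the 1 without hypoxia 3, and no miR-8 probe. An unadjusted p under 0.05 was reached by 15 probes as reported, 5 with the 75th percentile or no scaling, 6 without normoxia 2, 9 without normoxia 3, 50 with the calibration ratio as a covariate (chosen after seeing the data), 63 without hypoxia 3, 72 with array weights and 74 over all 2546 probes. No miR-8 probe passed in any alternative, the smallest adjusted p being 0.177 for lmi-miR-8-3p with array weights (limma, change 1.46), which gave hypoxia 3 a weight of 0.168. With single arrays left out the change was -0.19 to 0.36 (log2) for dpu-miR-8_R-1, -0.28 to 0.46 for dme-miR-8-3p, -0.10 to 1.14 for lmi-miR-8-3p, -0.62 to 0.038 for aae-miR-8-5p_1ss12GA and -0.73 to -0.50 for dme-miR-8-5p. Differences in change were -0.52 to 0.48 for dpu-miR-8_R-1 minus dme-miR-8-3p, -0.25 to 1.08 for dme-miR-8-3p minus aae-miR-8-5p_1ss12GA and -0.61 to 0.12 for dme-miR-8-5p minus aae-miR-8-5p_1ss12GA. The sign also turned for dme-miR-8-3p in the authors' values (0.050) and with array weights (0.52), and with the calibration covariate for lmi-miR-8-3p (-0.054) and aae-miR-8-5p_1ss12GA (0.095). The cause was not tested. No setting moved the median change of all tested probes by over 0.1. The groups of dme-miR-8-5p overlapped with the 75th percentile and with no scaling, and did not in the other 4 settings of background, scaling and source of values. With the 75th percentile the groups of aae-miR-8-5p_1ss12GA did not overlap instead (lower in hypoxia), where 5.6% of all tested probes had such groups. The replicate block moved the 15 to 11 and left 0 probes past the threshold (limma, smallest adjusted p = 0.987). Arrays of the same number deviated from their group means with r = -0.25, -0.27 and -0.06, which gives no sign of a pairing by number. With 3 arrays per oxygen level this cannot exclude one. No miR-8 probe was detected at 1 oxygen level only, also at limits of 2 and 5 standard deviations. At 2 standard deviations api-miR-8 was tested too, and at 5 lmi-miR-8-3p was not.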
